A study of Mus musculus with 6 samples.

Results

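The 3 ING4-/- libraries of the study follow the first steps of hematopoiesis in marrow that lacks ING4, from long-term hematopoietic stem cells (LT-HSCs) through short-term hematopoietic stem cells (ST-HSCs) to multipotent progenitors (MPPs). They are 3 of 6 bulk RNA-seq samples, and the other 3 are the same populations from WT C57BL/6 mice. Of 49315 genes in the files, 13527 had 50 or more counts in at least 1 ING4-/- library, and these genes were ordered by their levels in LT-HSCs, ST-HSCs and MPPs. Protein-coding genes made up 86.8% of them, and 9253 had 50 or more counts in every library.

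The ING4-/- mice (CD45.2) are homozygous null for Ing4. Cells were sorted from lineage-depleted bone marrow as Lin- Sca-1+ c-Kit+ CD48- cells. LT-HSCs were CD34- CD150+, ST-HSCs were CD34+ CD150+ and MPPs were CD34+ CD150-. Marrow of several mice was pooled before the sort, and each population and genotype has 1 library, so no difference below has a replicate check, no p-value is given, and a population cannot be told apart from its library. In bulk RNA, more cells of a type and more RNA per cell cannot be told apart.

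LT-HSCs are largely quiescent and sustain blood formation over the lifetime of the animal. ST-HSCs and MPPs divide more often and have less capacity for self-renewal, and MPPs begin to transcribe genes of the lymphoid and myeloid lineages at low levels, which is called lineage priming. ING4 is a chromatin reader that recognizes methylated histone H3 and works with the HBO1 acetyltransferase complex, and it has been studied as a regulator of NF-κB, c-Myc and p53.

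The LT-HSC library had a total of 35596876 counts, the ST-HSC library 37811937 and the MPP library 39192588, and at least 1 count was found for 14680, 15466 and 16188 genes. Levels are given as CPM, counts relative to the library total, scaled by the TMM method within the 3 libraries, with scaling factors from 0.984 to 1.02. Where 0 reads were counted, up to 3 remain possible (0.0857 CPM in LT-HSCs and 0.0754 CPM in MPPs), so lower counts were set to 3 before ratios were taken. The 10 most counted genes took 4.50% to 5.37% of the counts, and genes of the mitochondrial genome took 1.28%, 1.16% and 0.936% in LT-HSCs, ST-HSCs and MPPs. Background, measured on 1429 olfactory and vomeronasal receptor genes, was at most 0.0853 counts per kb of exon, against 18.1 to 22.7 in the WT libraries.

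Ing4, on chromosome 6 from 125039760 to 125049265 of GRCm38, had 0 counts in ING4-/- LT-HSCs, then 24 in ST-HSCs and 76 in MPPs. In WT it had 247, 162 and 247 counts in shallower libraries of 7839326 to 9363442 counts. The ING4-/- counts were below those of WT at each population. They are uncertain because 34.9% of the exonic bases of Ing4 are shared with another gene on the same strand. The WT counts are uncertain too. At the density of the receptor genes, background would give 119, 121 and 96.3 counts of Ing4 in WT. Ing4 did not pass the limit of 3 times background used for WT below.

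Of the genes behind the sort, Slamf1 and Cd34 moved in the direction of their gates, and Ly6a and Cd48 did not. Slamf1, which encodes CD150, had 3470 counts in LT-HSCs, with 888 in ST-HSCs and 299 in MPPs, or 99.1, 23.5 and 7.51 CPM. Its level fell 13.2-fold from LT-HSCs to MPPs (95% exact counting interval 11.7 to 14.9, which covers counting error only). Cd34 went the other way, with 9500, 22601 and 52899 counts, or 271, 597 and 1329 CPM, a rise of 4.90-fold (4.79 to 5.01). Both genes lie on chromosome 1, Slamf1 from 171767127 to 171801184 and Cd34 from 194938819 to 194961279. Kit, which encodes the stem cell factor receptor c-Kit, had 21967, 16974 and 33916 counts. Ly6a, which encodes Sca-1, had 12558, 2049 and 5641 counts, so it was lowest in ST-HSCs, although all 3 populations were gated as Sca-1+. Cd48 had 0 counts in LT-HSCs against 1077 in ST-HSCs and 4300 in MPPs, although the gate took CD48- cells. With the 0 counts set to 3, its level was 1261-fold higher in MPPs than in LT-HSCs, and the 95% counting interval began at 1025-fold.

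**Figure D1:**
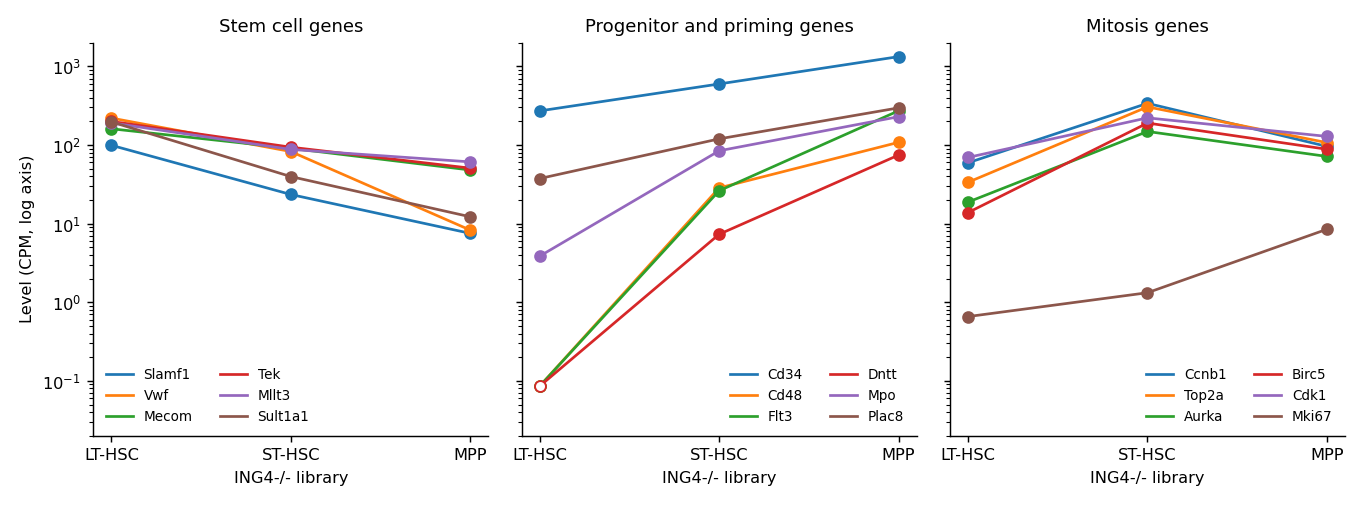
TMM-scaled level of 18 genes (CPM, log axis) in the ING4-/- LT-HSC, ST-HSC and MPP libraries, 1 point per library, with open circles where a gene had 3 or fewer counts and was drawn at 3 counts. The 6 stem cell genes step down from left to right, the 6 progenitor and priming genes step up, and 5 of the 6 mitosis genes are highest in ST-HSCs, with Mki67 highest in MPPs. The genes shown are a selection, and others of the same kinds, such as Hlf, Procr and Elane, did not follow.

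A gene was said to rise steadily when ST-HSCs were at least 1.2 times LT-HSCs, MPPs at least 1.2 times ST-HSCs and MPPs at least 2 times LT-HSCs, and to fall steadily when the same held in reverse. By this rule 1113 genes (8.23% of the 13527) rose steadily and 936 (6.92%) fell steadily. A larger number did not follow the order. In 1232 genes ST-HSCs were at least 2-fold above both neighbors (an ST-HSC peak) and in 1291 they were at least 2-fold below both (an ST-HSC dip). Peaks and dips together came to 2523 genes, against 2049 steady genes. Among genes with 50 or more counts in every library this order was the opposite, with 1156 steady genes and 969 peaks and dips. Steady falls were then more numerous than steady rises (655 and 501).

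Changes confined to 1 step were also common. An early rise, at least 2-fold from LT-HSCs to ST-HSCs and within 1.2-fold after that, was found in 534 genes, and an early fall in 679. A late rise, at least 2-fold from ST-HSCs to MPPs only, was found in 795 genes and a late fall in 215. With 50 or more counts in every library both orders were reversed. There were then 323 early rises and 244 early falls, and 89 late rises and 181 late falls. Another 730 genes stayed within 1.2-fold across all 3 libraries, with a median highest level of 108 CPM. The remaining 6002 genes met none of these definitions. Over all 13527 genes the order had little direction, since 49.2% were higher in ST-HSCs than in LT-HSCs, 49.1% were higher in MPPs than in ST-HSCs and 51.8% were higher in MPPs than in LT-HSCs.

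**Figure D2:**
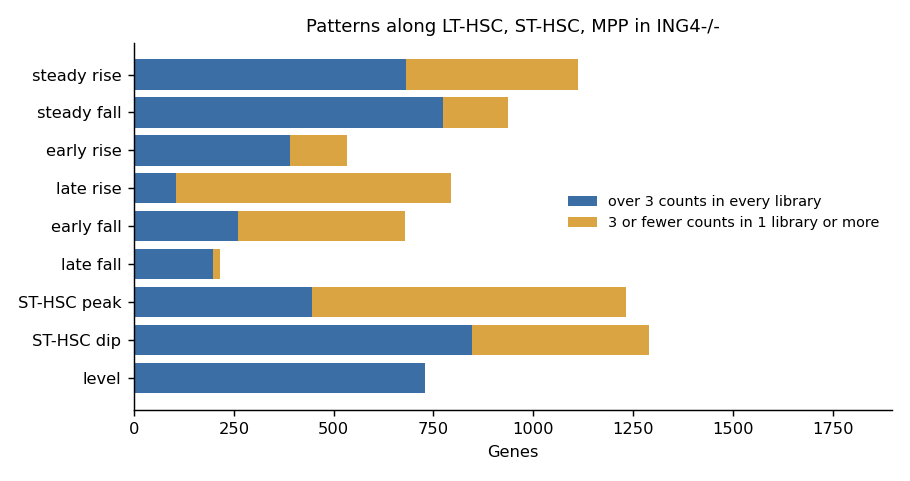
Number of genes in each pattern along LT-HSC, ST-HSC and MPP in ING4-/- (x axis, genes), split by whether any of the 3 libraries had 3 or fewer counts of the gene. Of the 795 late rises, 689 had a library with 3 or fewer counts, against 432 of the 1113 steady rises and 161 of the 936 steady falls.

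Many of the largest changes were between a well counted gene and almost no counts. A library with 3 or fewer counts was found for 3305 genes (24.4%), and for 1518 of them in 2 of the 3 libraries. Among them, 832 genes had 500 or more counts in 1 library and 3 or fewer in another, a gap that counting error does not span. The share of genes with 3 or fewer counts in at least 1 library was tied to level. It was 69.9% of genes whose highest level was 5 CPM or less, 37.5% of genes from 10 to 20 CPM, 13.5% from 20 to 50 CPM and 0.286% from 100 to 200 CPM. LT-HSCs had 3 or fewer counts of 2174 genes, ST-HSCs of 1573 and MPPs of 1076, so genes missing from a library were most frequent at the start of the order. Of the steady rises 38.8% had such a library, against 17.2% of the steady falls. The part of RNA yield or library preparation in these values was not tested.

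**Figure D3:**
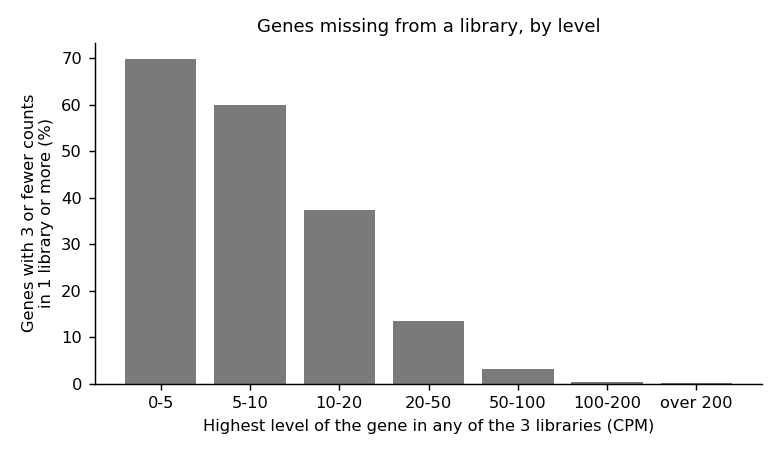
Percent of genes with 3 or fewer counts in at least 1 ING4-/- library (y axis) by the highest level of the gene in any of the 3 libraries (x axis, CPM). The share is 69.9% at 5 CPM or less and 0.147% above 200 CPM.

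Genes known for expression in HSCs were mostly lower at the end of the order. Of 30 such genes, 11 fell steadily, against 6.92% of all genes, and 2 rose steadily. MPPs were lower than LT-HSCs in 25 of the 30, with a median log2 ratio of -1.27, where the median over all genes was 0.055. All 30 had 50 or more counts in every library. The larger part of the decrease was at the first step, with a median log2 ratio of -0.95 from LT-HSCs to ST-HSCs and 0.01 from ST-HSCs to MPPs.

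Vwf, which encodes von Willebrand factor and marks platelet-biased HSCs, had 7704, 3123 and 329 counts in LT-HSCs, ST-HSCs and MPPs, or 220, 82.5 and 8.27 CPM. It fell 26.6-fold (23.8 to 29.8), with most of that fall at the second step. Sult1a1, which encodes a sulfotransferase, had levels of 197, 39.7 and 12.2 CPM and fell 16.1-fold (14.7 to 17.7). Cavin2, a component of caveolae, had 71.3, 39.8 and 5.83 CPM. Mecom, Tek and Mllt3 declined at both steps by smaller factors than Vwf. Mecom, which encodes the transcription factor EVI1, had 161, 90.7 and 48.0 CPM. Tek, the receptor for angiopoietins in the niche, had 199, 93.8 and 50.7 CPM. Mllt3, which helps to maintain HSC transcription, had 191, 87.8 and 61.0 CPM. These 3 genes had at least 1912 counts in every library, so counting error was small beside their differences.

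Not all HSC genes followed. Hlf, a transcription factor of HSCs, had 210, 112 and 219 CPM and so was as high in MPPs as in LT-HSCs. Procr, which encodes the endothelial protein C receptor, was lowest in ST-HSCs with 119, 27.4 and 51.4 CPM. Fgd5 and Gata3 rose steadily, Fgd5 with 245, 536 and 1498 counts and Gata3 with 651, 945 and 1663 counts. Fgd5 is used as an HSC reporter locus, so its direction differs from that of most genes in the list. The 19 listed transcription factors of the HSC network showed less movement, with a median log2 ratio of 0.13 from LT-HSCs to MPPs. Of the 19, 11 were higher in MPPs, near the share of 51.8% over all genes. Lmo2, a bridging protein of that network, had 1024, 853 and 875 CPM, and Hoxa10 was the 1 factor that fell steadily (87.9, 46.0 and 34.5 CPM).

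Lymphoid and multipotent priming genes were mostly higher at the end of the order. Of 24 listed genes 17 had 50 or more counts, and 8 of these rose steadily, against 8.23% of all genes, while none fell steadily. MPPs were higher than LT-HSCs in 14 of the 17 and the median log2 ratio was 1.69. With 50 or more counts in every library, 10 genes were left, of which 7 were higher in MPPs, 3 rose steadily and the median was 0.95. Flt3, the cytokine receptor that separates MPPs from HSCs, had 1 count in LT-HSCs but 991 in ST-HSCs and 10829 in MPPs, or 0.0286, 26.2 and 272 CPM. Dntt, which encodes terminal transferase of lymphoid progenitors, had 1, 277 and 2961 counts. Ighm, the IgM heavy chain locus, had 0, 307 and 2215 counts, and Il12a had 0, 643 and 1276. All of these were at or near 0 in LT-HSCs, and Ikzf1, which encodes the lymphoid regulator Ikaros, gave a smaller but better counted rise of 32.1, 39.6 and 65.1 CPM. Ltb, the listed gene with the highest level, went the other way and was highest in LT-HSCs (477, 91.3 and 200 CPM). Il7r, Ebf1, Rag1, Ikzf3 and Blnk, genes of committed lymphoid cells, were at 0 counts in all 3 libraries, each of which allows up to 3 counts.

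Myeloid priming was mixed. Mpo, which encodes myeloperoxidase, had 135, 3192 and 9107 counts, or 3.86, 84.3 and 229 CPM, and rose 59.3-fold (50.1 to 70.9). Plac8 had 37.4, 120 and 296 CPM and Csf3r, the receptor for G-CSF, had 20.4, 36.0 and 127 CPM. These 3 were the steady rises among 18 myeloid genes with enough counts, against 8.23% of all genes. Of the 18, 14 were higher in MPPs than in LT-HSCs, against 51.8% of all genes, and 7 had a library with 3 or fewer counts. Other granule genes varied. Ngp and Camp, which encode granule proteins of neutrophils and were listed as granulocyte markers, rose steadily from low counts, Ngp with 33, 69 and 397 and Camp with 6, 19 and 148. Elane, which encodes neutrophil elastase, had 1 count in LT-HSCs, then 1590 in ST-HSCs and 0 in MPPs, and it ranked first among the ST-HSC peaks. Prtn3, proteinase 3, had 263, 177 and 294 CPM, and Lyz2, lysozyme, stayed within 1.2-fold (779, 678 and 649 CPM). Csf1r was at 0 counts in every library.

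Erythroid and megakaryocyte genes had a different shape, with an ST-HSC peak in 6 of 22 genes and a steady fall in 4, against 9.11% and 6.92% of all genes. Klf1, the master regulator of erythroid genes, fell from 58.0 to 34.0 and 2.79 CPM, and Car1, an erythroid carbonic anhydrase, from 91.9 to 28.7 and 2.16 CPM. Gp9, a platelet glycoprotein, fell from 106 to 82.0 and 33.1 CPM. In contrast, Pf4, platelet factor 4, had 55.9, 325 and 55.6 CPM and Itga2b, which encodes CD41, had 172, 442 and 134 CPM, so both were highest in ST-HSCs. Only 3 of the 22 genes were higher in MPPs than in ST-HSCs, against 49.1% of all genes.

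Cell cycle genes were higher after the first step. Of 66 genes of G2/M phase and mitosis, 63 were higher in ST-HSCs than in LT-HSCs, against 49.2% of all genes, and the median log2 ratio was 2.15. At the second step 9 of the 66 were higher and the median was -0.63, so the list was highest in ST-HSCs. This held in the 46 genes with 50 or more counts in every library, where 43 were higher in ST-HSCs than in LT-HSCs (median 1.64) and 7 were higher in MPPs than in ST-HSCs (median -0.54). In all, 18 of the 66 were ST-HSC peaks, 8 were early rises and 3 rose steadily, against 9.11%, 3.95% and 8.23% of all genes.

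Single genes show the same course. Ccnb1, which encodes cyclin B1, had 59.3, 339 and 95.8 CPM in LT-HSCs, ST-HSCs and MPPs. Top2a, the topoisomerase of mitotic chromosomes, had 33.6, 305 and 107 CPM. Cdk1, the kinase that drives mitosis, had 69.5, 221 and 129 CPM. Aurka, Birc5 and Cdc20 were also highest in ST-HSCs, with 148, 190 and 225 CPM there, while Stmn1, which encodes stathmin, was similar in ST-HSCs and MPPs (1260 and 1158 CPM, against 591 in LT-HSCs). Mki67, which encodes the proliferation antigen Ki-67, was an exception in level and order, with 23, 50 and 337 counts, or 0.657, 1.32 and 8.47 CPM. In WT, Mki67 had 453, 1225 and 780 counts and was highest in ST-HSCs.

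DNA replication genes had the same first step. Of 50 genes of G1/S phase and replication, 42 were higher in ST-HSCs than in LT-HSCs (median log2 ratio 1.46), against 49.2% of all genes. At the second step 10 were higher in MPPs than in ST-HSCs (median -0.54), against 49.1%. Mcm2, a subunit of the replicative helicase, was the 1 steady rise (172, 287 and 435 CPM), and Mcm6, another subunit, had 462, 932 and 801 CPM. Tk1, thymidine kinase, had 11.8, 245 and 125 CPM. Orc1 and Clspn fell steadily, from 3.88 to 3.20 and 1.93 CPM and from 12.4 to 3.99 and 3.12 CPM. Of 34 replication-dependent histone genes, 22 were higher in ST-HSCs than in LT-HSCs (median 1.52), against 49.2% of all genes. Among the 14 with 50 or more counts in every library the direction was the opposite, with 6 higher and a median of -0.13.

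Promoters of the mitosis and replication lists were searched for sequence motifs. A motif share in these lists is a property of the genes listed, not of their order in these libraries. Promoters of 300 bases, from 250 before to 50 after each start, were taken from RefSeq on GRCm38.p6 and matched to 9836 of 13526 gene symbols (12529 promoters). TTTGAA, the cell cycle homology region bound by the DREAM complex, CCAAT, bound by NF-Y, and TTTNGCGC, an E2F-type site, were searched on both strands. TTTGAA was found in 71.9% of 57 promoters of the mitosis list, against 12.4% of all 12529, and CCAAT in 75.4% against 37.8%. Both were present in 61.4%, against 4.93%. TTTNGCGC was found in 30.6% of 49 promoters of the replication list, against 2.41% of all and 7.02% of the mitosis list. For the steady patterns as a whole no such excess was seen. TTTGAA was in 12.6% of promoters of steady rises and 12.3% of steady falls, and CCAAT in 38.5% and 34.8%. The GATA-type site with letters AGATAA was in 7.29% and 5.61% against 6.71% of all, and the ETS-type site with letters GGAAGTG in 13.2% and 12.6% against 14.9%. A match is a run of letters and is not evidence that a factor binds there.

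The promoters of 5 genes are shown as examples of the mitosis and replication lists, chosen after their values were seen, 5′ to 3′ on the strand of the gene. Capitals mark every match to the 5 motifs, where ATTGG is CCAAT on the other strand. Ccnb2 and Cdc20, a cyclin and an activator of the anaphase-promoting complex, hold TTTGAA and CCAAT, while Ccnb1 holds CCAAT without TTTGAA. Mcm3 and Mcm6, helicase subunits, hold CCAAT and TTTNGCGC. The promoters are at chr13:100786437-100786736 (minus strand) for Ccnb1, chr9:70421505-70421804 (minus) for Ccnb2, chr4:118437294-118437593 (minus) for Cdc20, chr1:20820263-20820562 (minus) for Mcm3 and chr1:128359656-128359955 (minus) for Mcm6.
Ccnb1: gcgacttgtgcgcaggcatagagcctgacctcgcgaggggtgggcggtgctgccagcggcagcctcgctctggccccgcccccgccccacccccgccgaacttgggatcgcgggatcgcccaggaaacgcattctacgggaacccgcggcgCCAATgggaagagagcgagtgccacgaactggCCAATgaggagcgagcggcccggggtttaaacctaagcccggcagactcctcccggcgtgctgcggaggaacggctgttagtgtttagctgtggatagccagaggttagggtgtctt
Ccnb2: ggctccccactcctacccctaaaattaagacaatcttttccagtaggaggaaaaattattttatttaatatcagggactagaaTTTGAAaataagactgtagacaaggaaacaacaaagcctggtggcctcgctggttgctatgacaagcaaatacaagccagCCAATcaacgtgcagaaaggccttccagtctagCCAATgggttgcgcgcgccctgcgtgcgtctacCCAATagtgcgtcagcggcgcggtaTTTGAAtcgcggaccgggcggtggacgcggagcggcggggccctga
Cdc20: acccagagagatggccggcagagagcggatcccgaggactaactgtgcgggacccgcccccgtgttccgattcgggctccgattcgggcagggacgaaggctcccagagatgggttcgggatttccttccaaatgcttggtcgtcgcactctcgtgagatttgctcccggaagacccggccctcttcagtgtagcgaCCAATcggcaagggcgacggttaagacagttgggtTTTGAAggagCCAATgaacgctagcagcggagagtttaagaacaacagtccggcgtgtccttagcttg
Mcm3: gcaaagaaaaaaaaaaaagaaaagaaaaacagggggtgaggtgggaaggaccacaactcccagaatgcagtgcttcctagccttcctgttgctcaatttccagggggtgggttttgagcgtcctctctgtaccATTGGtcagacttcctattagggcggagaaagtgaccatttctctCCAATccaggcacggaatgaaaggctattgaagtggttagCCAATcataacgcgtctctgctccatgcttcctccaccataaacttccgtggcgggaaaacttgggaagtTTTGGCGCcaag
Mcm6: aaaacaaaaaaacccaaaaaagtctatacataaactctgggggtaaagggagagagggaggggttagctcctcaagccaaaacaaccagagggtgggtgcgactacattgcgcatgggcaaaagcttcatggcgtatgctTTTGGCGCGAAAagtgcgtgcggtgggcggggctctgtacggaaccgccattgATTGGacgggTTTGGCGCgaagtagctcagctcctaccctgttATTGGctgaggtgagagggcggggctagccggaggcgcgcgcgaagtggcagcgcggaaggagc

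Genes that restrain division were mostly lower after LT-HSCs. Of 22 inhibitors of the cell cycle and quiescence genes, 6 fell steadily and none rose steadily, and 15 were lower in ST-HSCs than in LT-HSCs, with a median log2 ratio of -0.92. Cdkn1a, which encodes p21, had 20.8, 12.2 and 10.1 CPM, Rbl2, the pocket protein p130, had 175, 69.9 and 55.4 CPM, and Foxo1 had 21.7, 9.67 and 4.30 CPM. Cdkn1c, which encodes the quiescence factor p57, was level from LT-HSCs to ST-HSCs (37.0 and 36.0 CPM) and lower in MPPs (16.0 CPM). Cdkn1b, which encodes p27, was an early rise, with 5.68, 14.2 and 13.9 CPM. Among G1 regulators, Ccnd1, cyclin D1, fell from 76.0 to 19.4 and 11.4 CPM, while Cdk6, a G1 kinase tied to exit from quiescence, rose from 72.4 to 244 and 250 CPM. Myc stayed within 1.2-fold (415, 380 and 436 CPM).

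Immediate-early genes, which respond within minutes to cell handling as well as to signals, were lower after LT-HSCs. Of 26 such genes 2 were higher in ST-HSCs than in LT-HSCs (median log2 ratio -1.29), against 49.2% of all genes. In MPPs 3 were higher than in LT-HSCs, against 51.8% of all genes. Fos had 1733, 762 and 1095 CPM, Junb 836, 189 and 261, and Egr1, which also restrains HSC division, 694, 245 and 285. Steady falls made up 5 of the 26, against 6.92% of all genes, among them Atf3 (60.7, 29.3 and 14.8 CPM). These genes moved along the order together with the HSC and quiescence lists, and the part of sample handling was not tested.

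**Figure D4:**
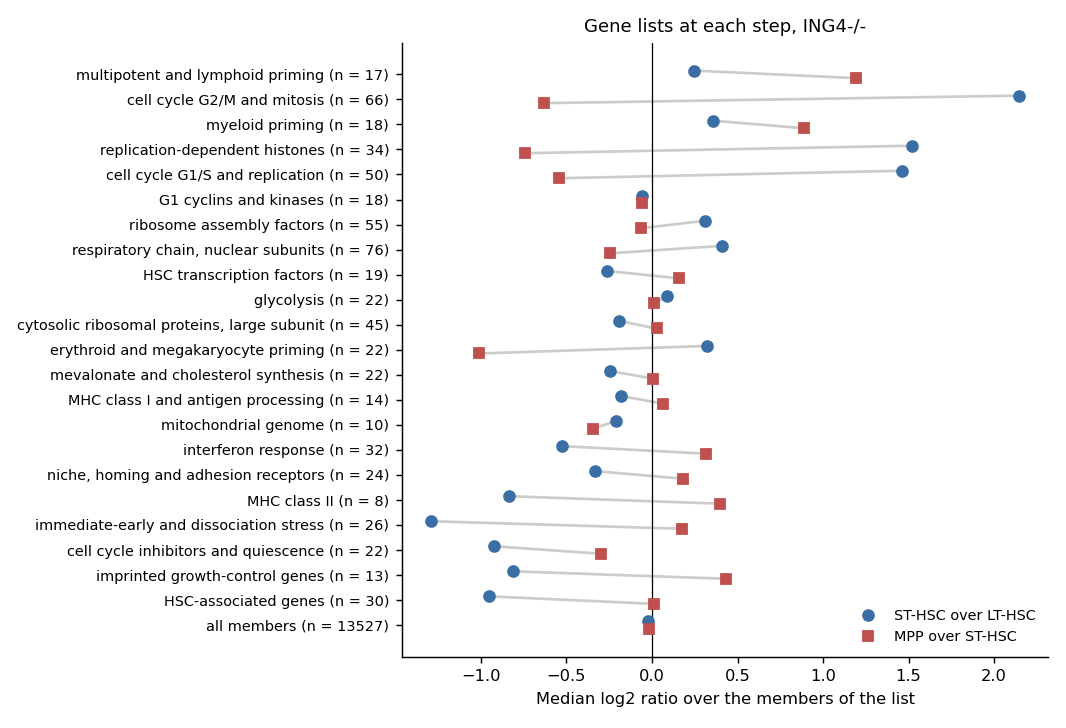
Median log2 ratio over the genes of each list (x axis) for the step from LT-HSC to ST-HSC (circles) and from ST-HSC to MPP (squares) in ING4-/-, with the number of genes per list and all 13527 genes at the bottom. The mitosis list is at 2.15 and then -0.63, the HSC-associated list at -0.95 and then 0.01, and the multipotent and lymphoid list at 0.24 and then 1.19.

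Ribosomal protein and mitochondrial genes mostly moved by little, while some ribosome assembly factors moved more. Of 45 large-subunit ribosomal proteins, 25 stayed within 1.2-fold across the 3 libraries, against 5.40% of all genes. In MPPs 7 were higher than in LT-HSCs (median log2 ratio -0.12), against 51.8% of all genes. That share of 15.6% became 22.2% with total counts only or upper-quartile scaling. It became 26.7% with scaling on genes with 50 or more counts in every library. In WT, 39 of the same 45 were higher in MPPs (median 0.24), where 60.4% of all genes were. The difference between the genotypes was not tested. Ribosome assembly factors had 8 steady rises and 1 steady fall among 55 genes, against 8.23% and 6.92% of all genes, including Rrp1b (497, 2367 and 3201 counts) and Ddx52 (213, 743 and 2349 counts), with Wdr12 falling (9136, 7386 and 4918 counts). Of 76 nuclear subunits of the respiratory chain, 68 were higher in ST-HSCs than in LT-HSCs (median 0.41), against 49.2% of all genes. In MPPs 57 were higher than in LT-HSCs (median 0.17), against 51.8%. Of 10 genes of the mitochondrial genome 1 was higher in MPPs than in LT-HSCs. That share of 10.0% was 30.0% with total counts only or upper-quartile scaling and 0% with RLE size factors. Atp5b, a subunit of ATP synthase, had 61047, 98970 and 88699 counts, and mt-Co1, of cytochrome oxidase, had 208684, 179725 and 147460. Glycolytic genes had no common direction (12 of 22 higher in MPPs, median 0.06), although Hk3, a myeloid hexokinase, rose from 7.23 to 20.4 and 83.7 CPM and Pfkp fell from 205 to 145 and 78.0 CPM.

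Surface and immune genes varied by member. Itga4, an integrin of homing, rose from 14.5 to 36.9 and 70.4 CPM, while Jam3 fell from 39.9 to 18.6 and 14.2 CPM. Vcam1 had 869 and 318 counts in LT-HSCs and ST-HSCs and 1 in MPPs. Of 32 interferon response genes, 13 were higher in MPPs than in LT-HSCs (median -0.35). Over all genes 51.8% were higher, which is the share to read beside this list and the MHC and imprinted lists below. Stat2 and Ifi44 fell steadily, Stat2 from 104 to 32.3 and 16.8 CPM, and Usp18, which limits interferon signaling, rose from 12.7 to 18.7 and 38.9 CPM. Among MHC class II genes, 1 of 8 was higher in MPPs and Cd74, the invariant chain, had 196, 33.5 and 47.1 CPM. In the MHC class I list 5 of 14 were higher (median -0.30). Of 13 imprinted growth-control genes, 2 were higher in MPPs (median -1.16), and Ndn, which encodes necdin, had 283, 55.5 and 75.1 CPM. In the mevalonate pathway 3 of 22 fell steadily (Fdft1, Hsd17b7 and Sc5d).

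The steady genes with the largest changes were mostly absent at 1 end of the order. All 15 protein-coding genes with the largest rises had 3 or fewer counts in LT-HSCs, and in MPPs they had 2148 to 10829 counts. Besides Flt3, Cd48 and Dntt they were Ccnf, Hnf4a, P2ry2, Bin1, Vldlr, Fut7, Adgrg3, Polg, Accs, Paqr5, Phrf1 and Nrde2. Fut7, which makes selectin ligands, had 0, 1727 and 2733 counts. Polg, the polymerase of mitochondrial DNA, had 3, 1889 and 2542 counts, while in WT it had 535, 488 and 839 counts. Ccnf, cyclin F, had 1, 2736 and 3485 counts. A gene was read in WT if any WT library passed the background limit. Of the 15, 14 could be read, and 13 of these were higher in WT MPPs than in WT LT-HSCs, against 60.4% of 7969 genes read there. Some of them, such as Hnf4a (1, 184 and 531 counts in WT), passed the limit in MPPs only, so the filter itself favors that direction.

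Of the 15 largest falls, 14 had 3 or fewer counts in MPPs, and Myh10 had 4. They were Plvap, Pld2, Fads3, Traf5, Thrb, Plpp3, Ocln, Clca3a1, Hspa1a, Serpinb8, Cd38, Ackr1, Arpin, Grtp1 and Myh10. Plvap, a protein of fenestrated endothelium, had 2224, 152 and 0 counts. Cd38, an enzyme of NAD+ breakdown found on LT-HSCs, had 1336, 430 and 0. Ackr1, the atypical chemokine receptor, had 1335, 217 and 0, and 25.7% of its exonic bases are shared with another gene on the same strand. In WT 6 of the 15 could be read, and 5 were lower in MPPs, Ackr1 with 129, 46 and 10 counts.

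Taking genes with 200 or more counts in every library, a limit set after the data were seen, gave changes that do not rest on near-absent genes. The 10 largest rises were from 10.3-fold to 17.8-fold, in Fbxl5, Slc22a3, Galk2, Hk3, Agpat5, Ipo7, Arhgap30, Impdh1, Ndrg1 and Senp3. Slc22a3, an organic cation transporter, had 673, 4750 and 10424 counts, and Ndrg1, a stress-responsive gene, had 706, 2261 and 8695. Impdh1, which makes guanine nucleotides, had 416, 1419 and 5158 counts. The 10 largest falls were from 12.2-fold to 26.6-fold, in Vwf, Plxnb2, Sult1a1, Ehd3, Prkcq, Ercc5, Slamf1, P3h1, Zfp111 and Cavin2. Prkcq, a protein kinase C, had 8555, 3719 and 694 counts and Plxnb2, a semaphorin receptor, 3738, 458 and 251. In WT, the 6 of these 10 falls that could be read were all lower in MPPs than in LT-HSCs. Of the 9 rises that could be read, 5 were higher in WT MPPs and 4 were lower. Over all genes read in WT 60.4% were higher in MPPs.

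The peaks and dips named by size were again genes absent or nearly absent from libraries. Besides Elane, the 5 largest peaks were Fkbp10 (0, 914 and 0 counts), Pxmp2, Nhlrc1 and Ankrd52. The 5 largest dips were Nacc2 (3329, 0 and 995 counts), Serinc5, Reck, Ift172 and Osgin1. Of the peaks, Elane and Pxmp2 could be read in WT, and neither was a peak there. Elane had 3, 70 and 65 counts and Pxmp2 221, 193 and 146. Of the dips, Serinc5, Ift172 and Osgin1 could be read in WT, where each was also lowest in ST-HSCs, but by far less. Serinc5 had 185, 158 and 383 counts there.

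The WT libraries, which the ordering did not use, gave a separate reading of direction. A gene was read there if any WT library passed the background limit, so the filter can favor the direction of that library. Of 568 steady rises that could be read above background in WT, 377 (66.4%) were higher in WT MPPs than in WT LT-HSCs. Of 460 steady falls, 206 (44.8%) were higher. Among all 7969 genes read there 60.4% were higher, so both groups differed from that share in the direction they had in ING4-/-. With a stricter limit of 10 times the background the shares were 73.0% and 41.2%, against 54.4% of all genes. The 2 genotypes share no library, but the WT counts hold far more background, which shrinks a WT ratio. It was also unequal, with 22.4 counts per kb in WT LT-HSCs and 18.1 in WT MPPs, which lowers MPP over LT-HSC ratios. After subtracting it, 72.5% of the steady rises and 49.8% of the steady falls were higher in WT MPPs, against 65.8% of all genes.

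**Figure D5:**
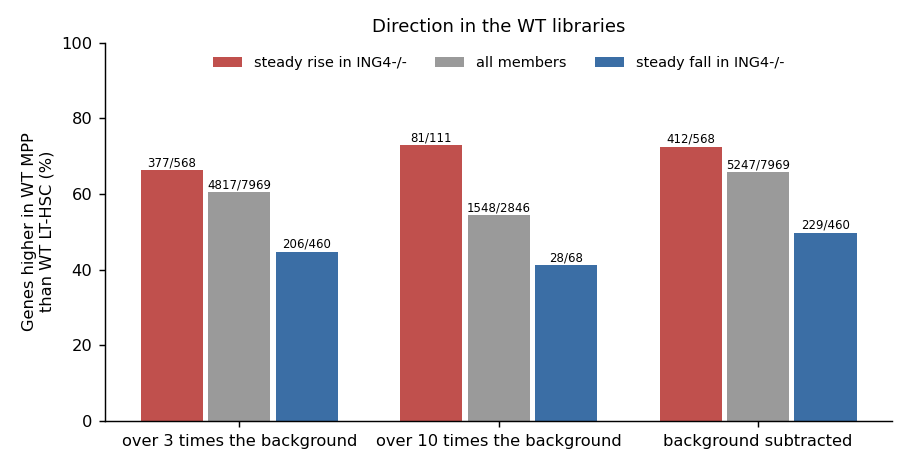
Percent of genes higher in the WT MPP library than in the WT LT-HSC library (y axis) for genes that rose steadily in ING4-/-, all genes read in WT and genes that fell steadily, under 3 treatments of the WT background, with counts above the bars. Steady rises are highest and steady falls lowest under each treatment.

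Some lists moved with the same sign in WT and others did not. For mitosis genes read in WT, 58 of 58 were higher in ST-HSCs than in LT-HSCs, against 53.0% of all genes, and 1 of 58 was higher in MPPs than in ST-HSCs, against 58.7%. The same 58 genes had 55 and 9 in ING4-/-. Of 27 HSC-associated genes 7 were higher in WT MPPs than in LT-HSCs (median log2 ratio -0.43), where 5 of the same 27 were higher in ING4-/-. Of 10 multipotent and lymphoid genes 9 were higher in WT and 8 in ING4-/-, and of 12 myeloid genes 10 were higher in each. Slamf1 had 986, 755 and 336 counts in WT, Cd34 1036, 2199 and 7281, Flt3 286, 474 and 1956 and Mpo 27, 209 and 1577. Of 22 immediate-early genes 10 were higher in WT MPPs than in WT LT-HSCs, where 60.4% of all genes read were. In ING4-/- 3 of the same 22 were higher, where 51.8% of all 13527 genes were. Other lists had a median of the opposite sign in WT, where the median over all 7969 genes read was itself above 0, at 0.145. Of 14 cell cycle inhibitors and quiescence genes 7 were higher in WT MPPs (median 0.06) and 4 in ING4-/-, of 30 interferon response genes 20 (median 0.15) and 12, of 14 MHC class I genes 10 (median 0.23) and 5, and of 7 MHC class II genes 4 (median 0.42) and 1. None of these differences was tested.

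Markers of other cells were checked for carry-over into the gates. Of 12 B cell markers 8 were at 0 in all 3 libraries, Cd79a, Ms4a1 and Pax5 among them, and of 12 T and NK cell markers 6 were at 0, Cd3e and Cd3g among them. Their summed levels were 76.8 to 116 CPM for B cells, where Cd79b led in LT-HSCs and ST-HSCs and Ighm equalled it in MPPs, and 74.0 to 268 CPM for T and NK cells, where Nkg7 had 842, 8442 and 7728 counts. Summed erythroid markers were 3269, 3457 and 2934 CPM, nearly all from Car2, with Alas2 at 0. Granulocyte and monocyte markers summed to 695 to 841 CPM, mostly Lyz2, with Ly6g at 0, and of 10 with enough counts 4 were higher in MPPs than in LT-HSCs and 2 rose steadily (Ngp and Camp). Mast cell and basophil markers summed to 69.7, 110 and 20.3 CPM, and Prss34, a basophil protease, had 2122, 2863 and 0 counts. Of the 6 with enough counts 2 were higher in MPPs than in LT-HSCs, among them Cpa3, a mast cell protease, with 0, 224 and 442 counts. Endothelial and stromal markers summed to 153, 59.8 and 77.4 CPM, highest in LT-HSCs where Plvap was found, with Lepr at 0. Plasma and dendritic cell markers summed to 386 to 663 CPM, with Siglech and Itgax at 0. The part of these cells in the steady rises and falls was not tested.

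Xist, the RNA of the inactive X chromosome, had 4578, 7381 and 5904 counts, and Y-linked genes were counted in each library too. Kdm5d had 999, 1 and 393 counts, Eif2s3y 292, 20 and 470, Ddx3y 349, 90 and 668 and Uty 520, 599 and 264. The Y-linked genes did not move together, with 3 of 4 lowest in ST-HSCs and Uty highest there.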

How the data were processed

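Bulk RNA of the 3 sorted populations (LT-HSC, ST-HSC, MPP) was sequenced, with 1 library per population and genotype. The authors deposited raw counts of reads per gene, made by a sequencing company, with mm10 named as the genome build in the submitters' processing notes. The aligner, the counting program and the strand setting are not given in the sources used here, so overlapping and antisense genes are uncertain. Symbols, positions and exon overlap came from GENCODE for GRCm38, which held 49056 of the gene identifiers and lacked 259.

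The 3 ING4-/- libraries were scaled among themselves with TMM factors from edgeR 4.0.16 (R 4.3.3) on the 13527 genes with 50 or more counts in at least 1 of them, and levels are CPM over the scaled totals. Counts under 3 were set to 3 before ratios. Each group had 1 library, so no test was made, and 95% exact (conditional binomial) intervals of ratios cover counting error only, since reads without molecular identifiers are not independent molecules. The WT libraries were scaled separately on genes read above background. In at least 1 WT library these genes had 50 or more counts and over 3 times the background. Background was the density of olfactory and vomeronasal receptor genes times exon length. Tables were made in Python 3.11.15 with pandas 2.3.3 and scipy 1.17.1, and the pattern rule was tested on simulated data with 200 changed genes.

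The genes and the 32 gene lists were chosen with earlier results of these data known. Genes were named by rule: the 15 protein-coding steady rises and 15 steady falls with the largest ratio of MPP to LT-HSC (leaving out symbols of predicted genes), the 5 largest peaks and dips, Ing4, the sort markers, Mki67, Xist and Y-linked genes, and in each list up to 4 steady genes with the largest change and the gene with the highest level. The results for some genes that this rule names are not reported here. Other genes were chosen after their values were seen, as were the genes with 200 or more counts in every library. Alternatives covered the scaling, the count minimum, the step size, the floor, thinning to equal depth, protein-coding genes only and the treatment of the WT background. WT values are read beside the ING4-/- values, and no difference between genotypes was tested. Promoters were RefSeq entries matched by symbol.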

Additional observations from a re-analysis of the deposited data

Results flagged for a closer look

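In 2 of the named genes that were read above the WT background (over 3 times), the ING4-/- and WT libraries went in opposite directions by more than 1 on the log2 scale from LT-HSCs to MPPs. Ipo7, which encodes a nuclear import receptor, rose in ING4-/- (323, 2868 and 4239 counts, log2 ratio 3.53) and was lower in WT MPPs (1954, 1192 and 976 counts, log2 ratio -1.19). Ngp, a neutrophil granule gene, rose in ING4-/- (33, 69 and 397 counts, log2 ratio 3.40) and was lower in WT MPPs (144, 92 and 71 counts, log2 ratio -1.2). With 1 library per population and genotype, neither difference was tested.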

How the results depend on the processing

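Steady rises numbered 1007 to 1291 and steady falls 831 to 1063 under other scalings, a minimum of 10 or 200 counts in at least 1 library, a 1.1-fold step, a counting interval at each step, equal depth, a floor of 10 counts and protein-coding genes only, apart from 984 rises at 200 counts. With 50 or more counts in every library and scaling on those genes they were 545 and 609, with 1.5-fold steps 702 and 559, and with 200 or more counts in every library, an alternative chosen after seeing the data, 374 and 440. Under that last limit there were 278 early rises, 84 late rises, 210 early falls, 126 late falls, 186 peaks and 440 dips, and with 200 counts in at least 1 library 340 late rises and 799 peaks. These settings test fewer genes or ask for larger steps by construction. In WT, 73.0% of steady rises were higher in MPPs above 10 times the background and 72.5% after subtracting it, and 49.8% of steady falls after subtracting it, where the share over all genes was 65.8%. Other scalings moved log2 ratios by at most 0.046 and changed the sign of the median of 0 of 32 lists. No paired analysis was possible because each group has 1 library and no test was made, and no library could be left out for the same reason. Differences between populations cannot be told apart from differences between libraries, and genes under about 50 CPM were often missing from a library.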

Other observations

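Background in the ING4-/- libraries also moved along the order, with 0.0853, 0.0694 and 0.0387 counts per kb of exon in receptor genes of LT-HSCs, ST-HSCs and MPPs. Ratios varied little with transcript length. In 5 equal groups of genes by exon length, the median log2 ratio of MPPs to LT-HSCs was 0.031 to 0.094, and that of ST-HSCs to LT-HSCs went from 0.072 in the group of shortest genes to -0.11 in the longest. Just outside the count minimum lay 29 genes with a highest count of 49, and just inside it 25 genes with a highest count of 50.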
